A study of Mus musculus with 8 samples.

Results

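The clustered histone genes are the genes whose deposited symbol begins with Hist1h, Hist2h, Hist3h or Hist4h, that is, the histone genes grouped in the Hist1 to Hist4 loci of the mouse. The rule found 70 of the 53801 rows of the table, 3 of them (Hist1h2aj, Hist1h2al and Hist3h2bb-ps) annotated as pseudogenes in GENCODE M21. They are read here in total RNA of stromal cells sorted from the small intestine of LTβRflox PDGFRα/YFP mice, in which the receptor gene Ltbr, for lymphotoxin β, is floxed in every group. Both groups were YFP+, CD45- and CD31-, so sorted against leukocytes and endothelial cells, and were separated by PDGFRα at the sort into PDGFRα- (4 libraries) and PDGFRα+ (4 libraries). The labels give neither the age of the mice, nor a treatment, nor whether each library came from its own mouse, so p-values cover no more than the variation among the 8 libraries, part of which may be technical. The libraries held between 12.9 and 35.1 (1e+06) raw counts. Pdgfra RNA itself overlapped between the groups, at 475 to 750 counts per 1e+06 of scaled library size (CPM) in PDGFRα- and 497 to 656 CPM in PDGFRα+ libraries, so the group names are those of the labels.

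Nucleosomes are built from the core histones H2A, H2B, H3 and H4, and the linker histone H1 binds the DNA between them. The clustered genes supply most of this protein while DNA is replicated, and their mRNAs rise at the start of S phase and are destroyed at its end. Most of these mRNAs carry no poly(A) tail. They end instead just past a short stem-loop that is bound by SLBP and cut with the help of the U7 small nuclear RNP, so libraries primed on poly(A) hold few of them, while total RNA libraries can hold them. A few clustered genes are known also to make a polyadenylated mRNA, which stays in cells that have stopped dividing. No poly(A)-selected library was analysed here, so the gain over such a library was not measured.

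The stem-loop is shown first because it is the feature that sets these mRNAs apart from nearly all others. The pattern searched, on the sense strand, was GGC, any base, CTTTT, any base, AG, any base and GCC. It was found in an annotated transcript of 42 of the 70 genes, and in 49 of 141767 GENCODE M21 transcripts in all (0.0346%). Only 5 genes that are not members held it, among them H2afx. Of these 5, Gm20634 and Trim17 overlap the members Hist2h2aa1 and Hist3h2a on the same strand, so they may hold the stem-loop of the member. Capitals mark the stem and loop in the examples, which are the DNA letters of the transcripts:
Hist1h1c: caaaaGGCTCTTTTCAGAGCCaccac
Hist2h2ac: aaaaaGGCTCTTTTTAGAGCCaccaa
Hist1h2bf: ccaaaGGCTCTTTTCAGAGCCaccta
Hist1h3e: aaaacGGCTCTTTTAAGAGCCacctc
Hist1h4d: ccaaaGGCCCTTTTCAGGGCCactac
Hist1h4i: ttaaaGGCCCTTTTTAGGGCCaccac
The form of Hist1h1c was the commonest, with 26 genes of the H1, H2A, H2B and H3 classes. That of Hist1h4d was found in 7 genes and that of Hist1h4i in 2, all of class H4, and that of Hist1h3e in 6 genes of classes H1, H2B and H3. Hist2h2ac was the single gene of its form. A gene with no match lacks these letters in its annotated model, which says nothing of its transcripts.

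The promoters were set beside the stem-loops because the classes differed there too. RefSeq promoter windows of GRCm38.p6, from 250 bases before to 50 after the start, were matched for 62 windows of members. CCAAT, on either strand, was in 53 of them (85.5%), against 37.4% of all 32851 windows of the table. It was in every window of the H1, H2A, H2B and H3 classes and in 3 of 12 of class H4 (25.0%). TATAAA was in 35 member windows (56.5%, against 13.6% of all), and the octamer ATTTGCAT in 14 (22.6%, against 1.74%), 7 of 17 for H2A and 7 of 17 for H2B and none of the other classes. Each motif was scored by itself on both strands, overlaps with another motif included. Windows of neighbouring H2A and H2B genes can overlap, as those of Hist1h2ae and Hist1h2bg do. A single site can thus count in both classes, and the windows are not all separate observations. The last 120 bases before the start are printed for 1 gene from each of 4 classes, with the motifs in capitals (ATTGG is CCAAT on the other strand):
Hist1h1d: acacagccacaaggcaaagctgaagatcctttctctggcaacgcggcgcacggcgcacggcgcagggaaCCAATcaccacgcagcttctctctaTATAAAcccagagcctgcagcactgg
Hist1h2bg: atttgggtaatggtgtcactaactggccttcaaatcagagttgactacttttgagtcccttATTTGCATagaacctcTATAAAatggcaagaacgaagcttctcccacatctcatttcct
Hist1h3b: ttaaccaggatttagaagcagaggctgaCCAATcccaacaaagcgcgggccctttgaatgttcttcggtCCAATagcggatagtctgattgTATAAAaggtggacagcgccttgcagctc
Hist1h4c: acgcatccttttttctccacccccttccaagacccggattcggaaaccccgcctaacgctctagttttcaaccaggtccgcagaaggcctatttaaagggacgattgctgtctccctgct
They lie at chr13:23554912-23555031 on the plus strand, chr13:23571280-23571399 on the plus strand, chr13:23752225-23752344 on the plus strand and chr13:23698459-23698578 on the minus strand. The stretch of Hist1h4c holds none of the motifs, although its whole window was 1 of the 3 of class H4 with CCAAT. The window of Hist1h2bg also held CCAAT, outside the printed stretch. A match is a run of letters, not a shown binding site.

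Detection was partial. Of the 70 genes, 58 had a count in at least 1 library, 21 had a count in all 8 libraries, and 12 had none in any. Of all 53801 rows deposited, 24547 had no count in any library, a larger share than among the members. At least 10 counts in 4 or more libraries were reached by 36 of the 70 genes. Together the 70 held 0.0173% to 0.0555% of a library's counts, from 2249 counts in PDGFRα+ library 4 to 12809 in PDGFRα+ library 2. The number of members with a count was, in replicate order, 44, 37, 33 and 41 for PDGFRα- and 53, 52, 42 and 35 for PDGFRα+. The 2 shallowest libraries, PDGFRα- 3 and PDGFRα+ 4 at 12.9 and 13.0 (1e+06 counts), had the fewest in their groups. A count of 0 allows up to 3 counts, which is 0.086 CPM in the deepest and 0.234 CPM in the shallowest library, for counting error only. The map of raw counts shows where each gene was seen.

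**Figure D1:**
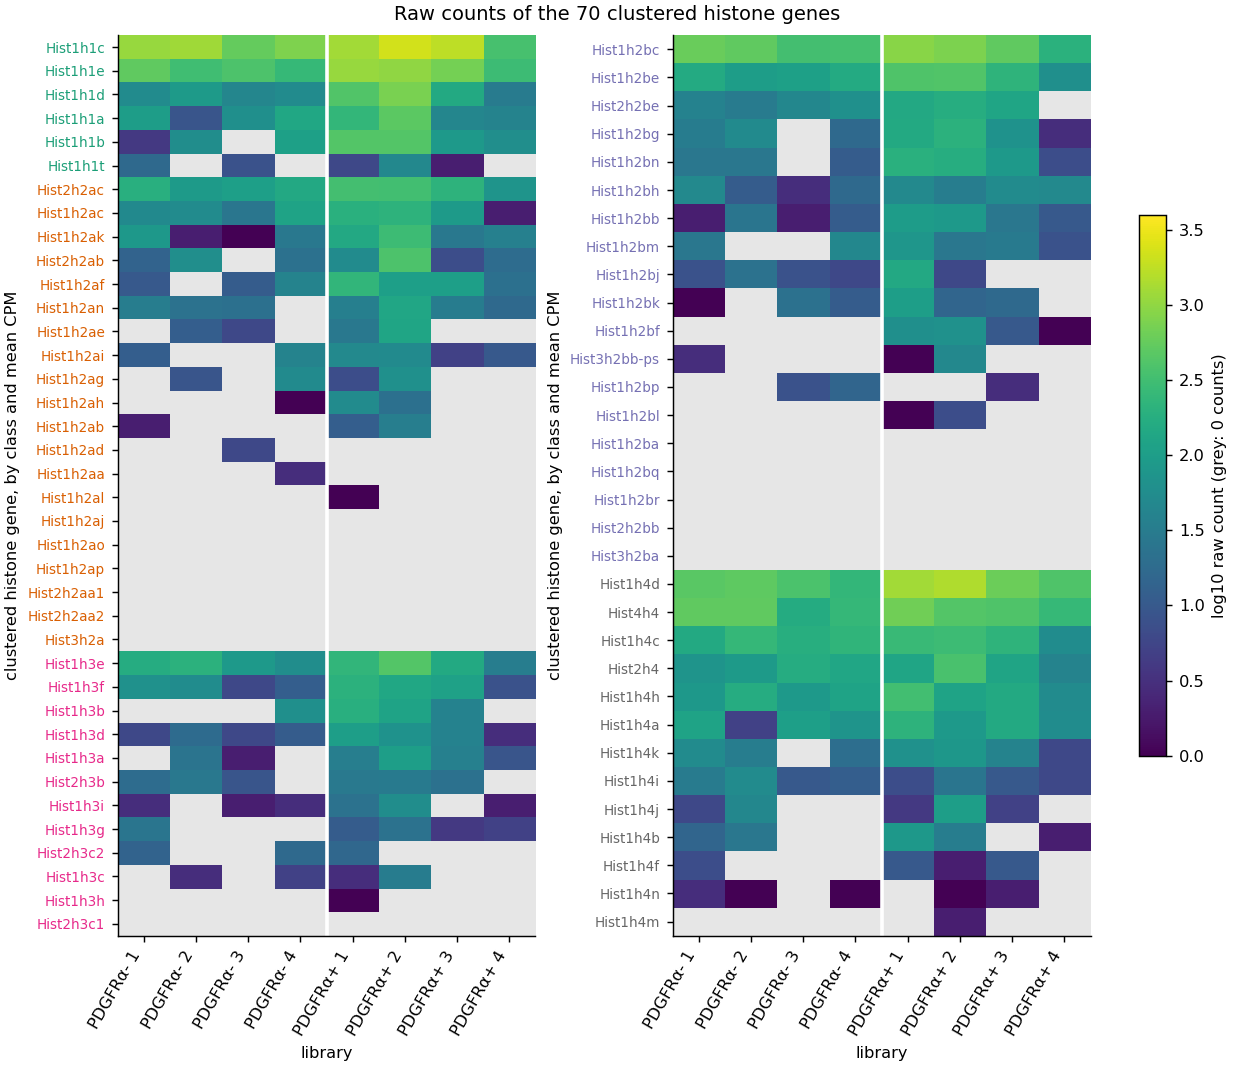
Raw counts (log10 colour scale, grey for 0) of the 70 clustered histone genes in the 8 libraries, sorted by class and mean CPM, with symbols coloured by class (H1, H2A and H3 on the left, H2B and H4 on the right). The upper rows of each class are filled in nearly all libraries, 12 rows are grey throughout, and PDGFRα+ libraries 1 and 2 have the most filled cells, 53 and 52.

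Of the genes, 56 are named Hist1 and lie on chromosome 13, 55 of them in the locus at chr13:21715763-23934851 and the pseudogene Hist1h2al apart from it at chr13:51202727-51203065 (GRCm38). Hist2 on chromosome 3 holds 10, Hist3 on chromosome 11 holds 3, and Hist4 on chromosome 6 holds 1. By class, none of the 6 H1 genes and none of the 13 H4 genes was at 0 throughout, but 6 of 20 H2A, 5 of 19 H2B and 1 of 12 H3 genes were. The copies resemble each other closely, and 8 of the 67 coding sequences belong to groups of identical copies (63 are distinct). The share of a gene's 50-base words that occur in no other gene, leaving aside genes that overlap it in place, was therefore set beside its counts. Among 16 genes with under 20% of such words, 7 were at 0 and 3 reached the test described further on. Among 38 genes with at least 50%, 5 were at 0 and 26 reached the test. The 7 were Hist1h2aj, Hist1h2ao, Hist1h2ap, Hist1h2bq, Hist1h2br, Hist2h2aa1 and Hist2h2aa2, with 0 to 11.3% of words of their own. How reads that match several places were counted is not given in the sources used here, so a 0 for these genes and a low level in the other copies are uncertain. The other genes at 0 were Hist1h2ba, Hist2h2bb, Hist2h3c1, Hist3h2a and Hist3h2ba, with 61.8% to 100%, and of these Hist2h2bb, Hist2h3c1 and Hist3h2a share exonic sequence in place with another annotated gene. In all, 23 genes overlap a gene on the other strand, for 19 of them a small annotated miRNA gene, and the strand setting of the counting is not given either.

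**Figure D2:**
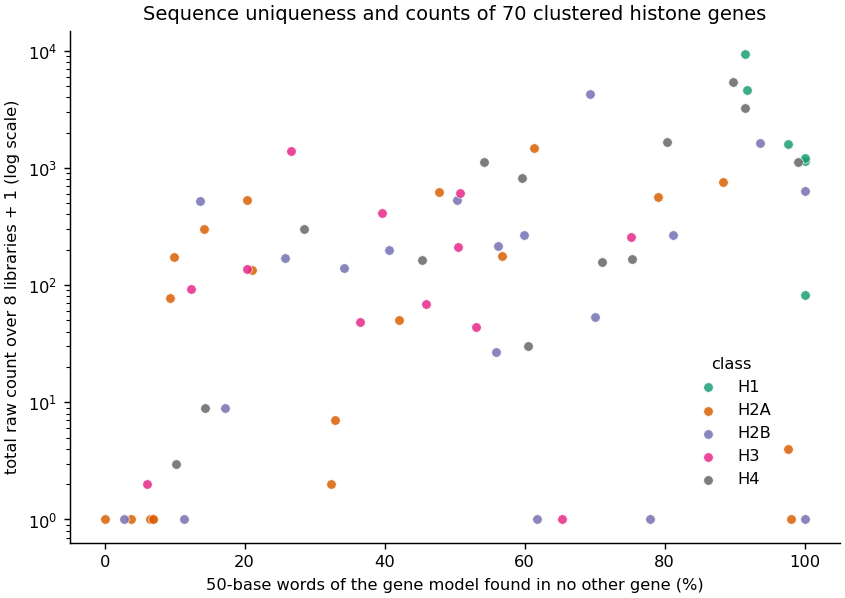
Each point is 1 of the 70 clustered histone genes, with the share of its 50-base words found in no other gene (%) on the x axis and its total raw count over 8 libraries plus 1 on the y axis (log scale), coloured by class. Points at the left edge sit mostly at the bottom, and the 5 genes at 0 with over 50% lie apart at the lower right.

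Of 3 genes known mainly from the testis, Hist1h2ba was at 0, Hist1h2aa had 3 counts in 1 library and Hist1h1t had 81 counts in all. Hist1h1t, the testis linker histone, stood at 0.692, 0, 0.624 and 0 CPM in PDGFRα- and at 0.172, 1.97, 0.0646 and 0 CPM in PDGFRα+ libraries. At such levels no difference between the groups was detectable.

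Between genes, levels were compared as CPM per kilobase of annotated exon. The levels were very uneven. Hist1h1c, coding for linker histone H1.2, led with 32.1 CPM per kb, and before length correction it alone made up 19.2% of the summed CPM of all members. Hist1h4d followed at 25.8, Hist1h2bc at 19.9, Hist2h2ac at 15.1, Hist1h1e at 12.8, Hist1h4h at 12.7 and Hist1h4c at 11.6 CPM per kb. The 5 most abundant genes (Hist1h1c, Hist1h4d, Hist1h1e, Hist1h2bc and Hist4h4) held 55.6% of the summed CPM. The level per kb rests on the annotated length, which ran far past the stem-loop for many genes. In 21 of the 42 genes with a stem-loop the model ended within 100 bases of it, and in the other 21 it ran on for over 100 bases, 840 for Hist1h1c, 770 for Hist1h4d and 4884 for Hist1h1d. Those 21 long models held 67.7% of the summed CPM, the short ones 8.82% and the 28 genes with no match 23.5%. Counts per gene do not show on which side of the stem-loop the reads fell, so cut and extended transcripts could not be told apart.

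The PDGFRα+ and PDGFRα- libraries were then compared gene by gene with the edgeR quasi-likelihood test, fitted over all 15643 genes with enough counts and adjusted over them. Of the 70 members 37 entered the test, and 21 of the 33 others had counts, at most 199 in all. None of the 37 passed an adjusted p of 0.05 in either direction, where 0.192% of all tested genes were higher in PDGFRα+ and 0.0511% lower. At an unadjusted p under 0.05, 3 members were higher (Hist1h1d, Hist1h2bn and Hist1h4d) and none lower, against a background of 3.73% and 3.22%. DESeq2 (0.855% of all genes higher) and limma-voom (0.217%), likewise with group as the only term, called no member. The fold change was above 1 in 30 of 37 (49.1% of all genes), with a median log2 fold change of 0.81, against -0.01 over all genes tested. No tested member had every PDGFRα+ library above every PDGFRα- library, which 2.69% of all genes tested had, nor the reverse (2.36%). Among the untested members Hist1h2bf did, at low counts given further on. The intervals were wide, with a median width of 4.65 on the log2 scale, and 32 of 37 held a 2-fold rise (log2 of 1), so these data neither show a rise of that size for them nor bound it. In bulk RNA, fewer cells in S phase and less histone mRNA per such cell cannot be told apart.

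**Figure D3:**
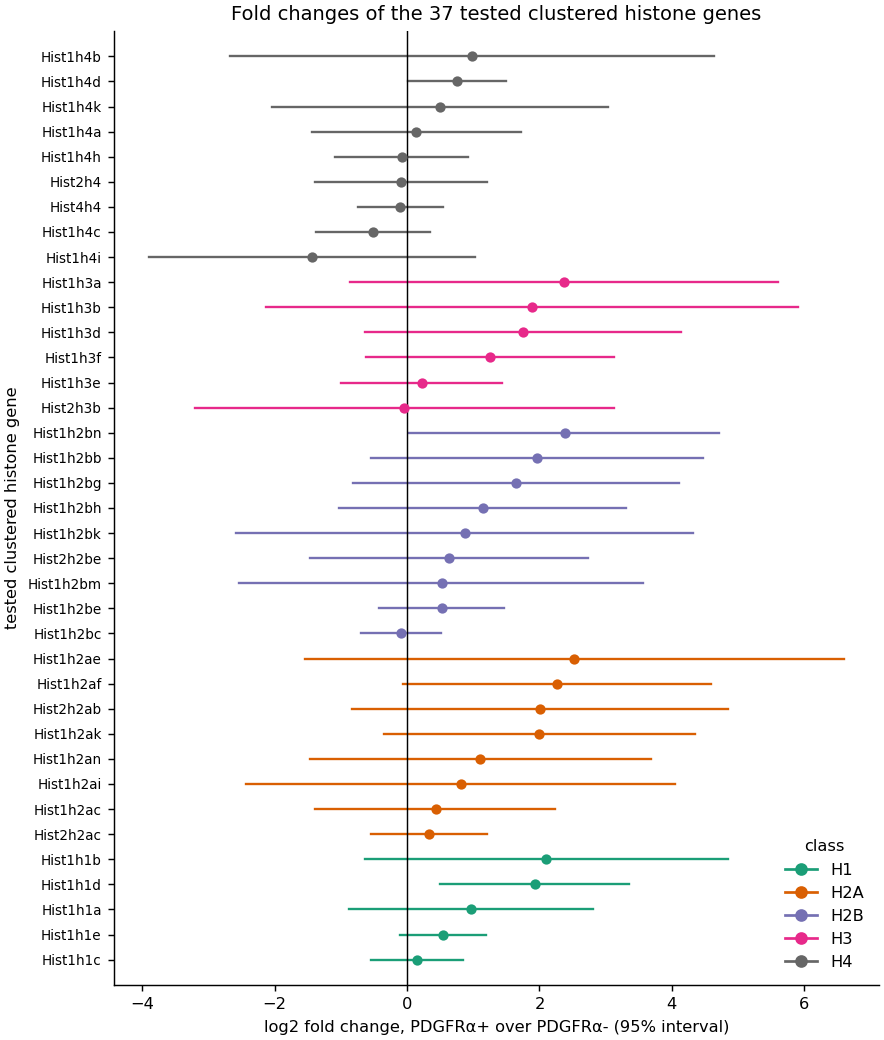
Log2 fold change (PDGFRα+ over PDGFRα-) with its 95% interval for the 37 tested clustered histone genes, coloured by class, from the unpaired edgeR fit. The intervals of 34 genes cross 0, those of Hist1h1d, Hist1h2bn and Hist1h4d lie just above it, and the H4 genes centre near 0.

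Linker histones had 5 tested genes, all with a positive log2 fold change (median 0.96). Hist1h1c stood at 44.7, 60.7, 44.4 and 39.9 CPM in PDGFRα- and at 36.7, 91.4, 55.5 and 26.7 CPM in PDGFRα+, each in the order of libraries 1 to 4 that is kept throughout. The PDGFRα+ values lay on both sides of the others, with a log2 fold change of 0.15 ± 0.32 (SE, adjusted p = 0.987 by edgeR, as for all such values that follow) and of -0.26 without PDGFRα+ library 2. Hist1h1e, linker histone H1.4, stood at 21.1, 15.7, 30.7 and 13.1 CPM against 31.4, 40.7, 22.7 and 22.1 CPM (0.54 ± 0.30, adjusted p = 0.836). Its groups overlapped, and its annotated exons overlap those of Hist1h2be on the same strand, so reads of the shared stretch are uncertain. Hist1h1a, linker histone H1.1, was at 4.07, 0.453, 4.91 and 6.98 CPM against 6.99, 20.5, 1.45 and 3.05 CPM (0.96 ± 0.85, adjusted p = 0.949), and its direction turned without PDGFRα+ library 2 (-0.10).

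Hist1h1d (linker histone H1.3) and Hist1h1b (H1.5) were singled out after their values were seen. Hist1h1d stood at 2.24, 4.68, 3.51 and 2.76 CPM in PDGFRα- and at 12.1, 30.9, 5.0 and 2.3 CPM in PDGFRα+ libraries. Libraries 1 to 3 of PDGFRα+ exceeded all PDGFRα- libraries and library 4 fell among them, giving a log2 fold change of 1.93 ± 0.66 (adjusted p = 0.427). With no filter on low counts this gene passed the test (1.95, adjusted p = 0.0178), and over all settings its adjusted p ran up to 0.999. Without PDGFRα+ library 2 the log2 fold change was 0.97. Hist1h1b was at 0.163, 2.97, 0 and 5.63 CPM against 12.6, 17.9, 2.87 and 4.53 CPM (2.10 ± 1.22, adjusted p = 0.86), with 1.6 to 3.16 when a library was left out. PDGFRα+ libraries 1 and 2 were above all PDGFRα- libraries, and libraries 3 and 4 were not.

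Core histone H2A had 8 tested genes, all with a positive log2 fold change (median 1.55). Hist2h2ac was at 7.49, 4.63, 8.42 and 7.39 CPM in PDGFRα- and 9.43, 13.3, 6.88 and 5.50 CPM in PDGFRα+ libraries (0.33 ± 0.41, adjusted p = 0.97). PDGFRα+ libraries 1 and 2 were above every PDGFRα- library, and libraries 3 and 4 lay within the PDGFRα- values. Hist1h2ak was at 3.34, 0.101, 0.078 and 1.41 CPM against 4.24, 12.1, 0.904 and 2.75 CPM (2.00 ± 1.09, adjusted p = 0.83). Hist2h2ab was at 0.570, 3.02, 0 and 1.11 CPM against 1.58, 15.9, 0.226 and 1.41 CPM (2.01 ± 1.31, adjusted p = 0.885). Its direction rested on PDGFRα+ library 2, since without it the log2 fold change was -0.14. Hist1h2af, chosen after its values were seen, stood at 0.407, 0, 0.858 and 2.06 CPM against 6.65, 4.34, 3.42 and 1.56 CPM. Here libraries 1 to 3 of PDGFRα+ exceeded all PDGFRα- libraries (2.26 ± 1.08, adjusted p = 0.746), and 20.3% of its 50-base words were its own.

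Core histone H2B had 9 tested genes, 8 with a positive log2 fold change (median 0.87). Hist1h2bc was 1 of 3 genes listed here for a known poly(A) form. It was at 24.6, 26.7, 26.2 and 17.4 CPM in PDGFRα- and 26.3, 31.4, 17.0 and 14.6 CPM in PDGFRα+ libraries (-0.09 ± 0.28, adjusted p = 0.993). The value turned to 0.03 and 0.07 without PDGFRα+ library 3 or 4 and to 0.01 with library totals. Hist2h2be, another of the 3 listed, was at 1.63, 1.56, 3.67 and 3.22 CPM against 4.21, 7.09, 4.16 and 0 CPM (0.63 ± 0.98, adjusted p = 0.975). Summed, the 3 listed genes (Hist1h1c, Hist1h2bc, Hist2h2be) stood at 73.7 ± 11.8 CPM (SD, n = 4) in PDGFRα- and 78.7 ± 37.3 CPM in PDGFRα+ libraries, a ratio of 1.07. The other 67 genes stood at 144 ± 15.3 and 225 ± 126 CPM, a ratio of 1.56. Whether these ratios differ was not tested, and without PDGFRα+ library 2 they were 0.837 and 1.17. The list of 3 is a choice, and further genes with a poly(A) form among the other 67 were not set apart.

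Among the low H2B genes, Hist1h2bn was at 1.10, 1.36, 0 and 0.553 CPM against 5.47, 7.09, 2.78 and 0.520 CPM (2.38 ± 1.10, adjusted p = 0.71). Hist1h2bg was at 1.3, 2.66, 0 and 0.854 CPM against 4.41, 8.36, 2.23 and 0.223 CPM (1.65 ± 1.15, adjusted p = 0.906). In both, PDGFRα+ libraries 1 and 2 were the highest of all 8 and library 4 was within the PDGFRα- values. Hist1h2bf, chosen after its values were seen, had 0 counts in all PDGFRα- libraries and 62, 66, 10 and 1 counts in the PDGFRα+ libraries. It did not pass the filter on low counts and was not tested. Pooled over each group it was at least 34.5-fold higher in PDGFRα+, taking 3 counts over the group as the floor, for counting error only. PDGFRα+ libraries 1 and 2 gave 62 and 66 of its 139 counts. Of the 50-base words of Hist1h2bf 34.2% were its own, and of those of Hist1h2bn 13.6%. How reads with several matches were counted is not known, so the 0s and the fold of Hist1h2bf and the level of Hist1h2bn are uncertain.

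Core histone H3 had 6 tested genes, 5 with a positive log2 fold change (median 1.5). Hist1h3e was at 6.96, 10.4, 7.02 and 2.91 CPM in PDGFRα- and 6.68, 17.5, 5.04 and 2.53 CPM in PDGFRα+ libraries (0.22 ± 0.57, adjusted p = 0.99), and the value was -0.52 without PDGFRα+ library 2 and -0.03 without PDGFRα- library 4. Hist1h3f was at 2.73, 2.82, 0.468 and 0.603 CPM against 5.90, 5.65, 3.71 and 0.594 CPM (1.26 ± 0.87, adjusted p = 0.906). For Hist1h3b, 3 of 4 PDGFRα- libraries were at 0 and library 4 at 3.12 CPM, against 5.27, 5.08, 1.26 and 0 CPM (1.89 ± 1.84, adjusted p = 0.965). Without PDGFRα- library 4 that group was at 0 throughout and the fitted value was 9.07, which depends on the prior count and is no bound.

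Core histone H4 had 9 tested genes, 4 with a positive log2 fold change (median -0.08). Whether the classes differ was not tested. Hist1h4d was at 19.6, 25.6, 30.1 and 12.2 CPM in PDGFRα- and 36.4, 60.9, 19.7 and 30.1 CPM in PDGFRα+ libraries (0.75 ± 0.35, adjusted p = 0.711). PDGFRα+ libraries 1 and 2 were above all others and the rest overlapped. Hist1h4h was at 3.42, 8.40, 6.78 and 6.08 CPM against 9.14, 5.04, 4.97 and 4.09 CPM (-0.08 ± 0.47, adjusted p = 0.996), turning to 0.11 without PDGFRα- library 2, 0.06 without PDGFRα+ library 4 and 0.09 by limma-voom. Hist1h4c was at 6.31, 12.6, 14.3 and 11.6 CPM against 7.88, 11.9, 7.17 and 4.23 CPM (-0.51 ± 0.40, adjusted p = 0.929). Neither pair of groups separated.

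Summed over all 70 genes, PDGFRα- libraries stood at 203, 241, 235 and 190 CPM (217 ± 24.7, SD, n = 4) and PDGFRα+ libraries at 312, 525, 210 and 167 CPM (303 ± 159). PDGFRα+ libraries 1 and 2 were above every PDGFRα- library, library 3 was among them and library 4 was below them all. The ratio of the means was 1.40 over all genes, 2.05 for H2A, 1.78 for H3, 1.45 for H1, 1.36 for H2B and 1.15 for H4. Without PDGFRα+ library 2 the ratios were 1.06 over all genes, 1.26 for H2A, 1.20 for H3, 1.06 for H1, 1.11 for H2B and 0.958 for H4. That library was the highest of all 8 for 23 of the 37 tested genes. It exceeded every PDGFRα- library for 28, library 1 did so for 20, library 3 for 6 and library 4 for 1. The shares of all tested genes with these patterns are not given here, so the counts describe the members only. Without library 2 the median log2 fold change of the members was 0.28, against -0.02 over all genes tested, and 25 of 37 were positive.

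**Figure D4:**
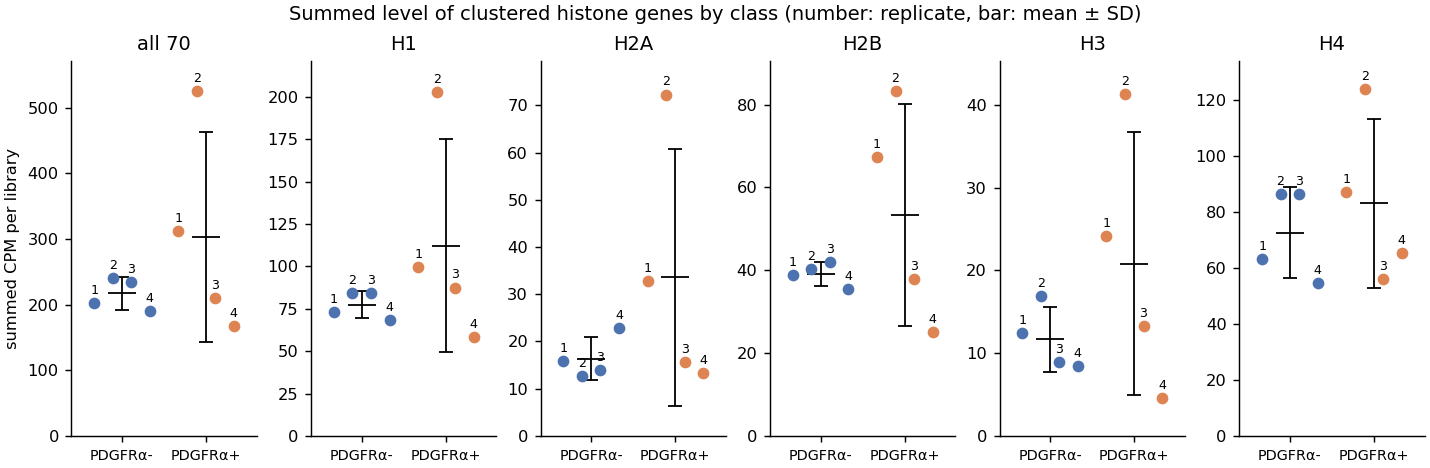
Summed CPM per library over all 70 clustered histone genes and over each class, with points numbered by replicate and black bars for the mean and SD (n = 4 per group). PDGFRα+ library 2 is the highest point in every panel, at 525 CPM over all genes, and PDGFRα+ libraries 3 and 4 sit among or below the PDGFRα- points except in H1, where library 3 (87.6 CPM) is just above them.

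The authors' deposited table gives an adjusted p for 41 of the members, and 3 of them passed 0.05, all higher in PDGFRα+. In the authors' deposited table, the log2 fold change was 3.58 for Hist1h1b (adjusted p = 8.98e-04), 6.18 for Hist1h2bf (adjusted p = 0.0354) and 3.03 for Hist1h2af (adjusted p = 0.0497). By the authors' deposited table, 2.3% of 16785 genes were higher and 2.52% lower at that threshold. These are the same libraries and no independent measurement. Over the 37 tested members the authors' deposited log2 fold changes lay within 0.00509 of those from DESeq2 with the replicate number as a term, and a median of 0.267 away from those of DESeq2 without it. With that term DESeq2 gave 3.58 for Hist1h1b (adjusted p = 8.81e-04) and 3.02 for Hist1h2af (adjusted p = 0.05), while edgeR with the same term called no member. The absence of calls in the unpaired test therefore does not hold for every model, and the labels do not say what a replicate number stands for.The 3 genes were at 0 or under 6 CPM in every PDGFRα- library.

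Genes that make, cut or bind the histones were read from lists of known roles. None of 14 tested genes for transcription and 3′ processing of histone mRNA passed the test (median log2 fold change 0.24). Among these were Ctif, which helps histone mRNA translation (0.10 ± 0.15, adjusted p = 0.975), and Upf1, which helps its decay (0.38 ± 0.20, adjusted p = 0.803). Only Cpsf2, named after its value was seen, had an unadjusted p under 0.05 (0.59 ± 0.27, adjusted p = 0.709). None of 19 histone chaperones passed (median -0.04), with Atrx at -0.03 ± 0.15 (adjusted p = 0.995) and Npm1 at -0.06 ± 0.15 (adjusted p = 0.99). None of 11 histone variant genes outside the clusters passed (median 0.07), and H2afy, coding for macroH2A1 and named after its value was seen, alone had an unadjusted p under 0.05 (0.54 ± 0.20, adjusted p = 0.469). These are transcribed outside S phase too, and H3f3b, coding for H3.3, was at 93.9 CPM per kb (-0.34 ± 0.18, adjusted p = 0.789), above every clustered gene. H1f0, the linker histone of resting cells, was at 48.1 CPM per kb (-0.12 ± 0.19, adjusted p = 0.975).

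Other RNAs without a poly(A) tail were read in the same libraries. Rn7sk, a small nuclear RNA that holds back transcription elongation, ran from 4170 to 5970 CPM over the 8 libraries (-0.02 ± 0.16, adjusted p = 0.997), and Rny3, a Y RNA, from 153 to 261 CPM (-0.16 ± 0.19, adjusted p = 0.97). None of the 9 tested of 15 listed passed, 1 of the 9 was positive with a median log2 fold change of -0.35, and 3 (Rmrp, Scarna13 and Snord17) had no counts. Of 5 nuclear long RNAs none passed, with Malat1 at 11900 to 16600 CPM (-0.02 ± 0.16, adjusted p = 0.997) and Neat1 at 248 to 1170 CPM (-0.12 ± 0.46, adjusted p = 0.994). The directions of Rn7sk and Malat1 turned with library totals and without single libraries, and that of Neat1 without PDGFRα- library 3 or PDGFRα+ library 2.

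Cell cycle genes were set beside the histones. None of 39 tested S phase and replication genes passed (33 positive, median 0.62), yet their summed level separated the groups, at 339, 371, 332 and 344 CPM against 516, 477, 400 and 399 CPM. The 5 with an unadjusted p under 0.05, named for that, were Mcm2, Mcm4, Mcm6, Tyms and Pola1, and Mcm2, a subunit of the replicative helicase, stood at 1.5 ± 0.43 (adjusted p = 0.276). The 2 most abundant, Pcna (-0.32 ± 0.18, adjusted p = 0.841) and Dnmt1 (0.14 ± 0.22, adjusted p = 0.975), overlapped between groups. Of 18 tested G2 and mitosis genes 15 were positive (median 1.67), and 9 were higher at an unadjusted p under 0.05. The summed level of the 22 listed separated the groups, at 39.9, 34.1, 34.3 and 52.6 CPM against 198, 204, 101 and 101 CPM. Of the 18, 1 passed the test, the proliferation marker Mki67 (3.36 ± 0.34, adjusted p = 0.00137). It stood at 5.29, 2.66, 2.03 and 4.52 CPM against 47.8, 39.7, 27.3 and 35.5 CPM. PDGFRα+ libraries 1 and 2 were the highest in the histone sum and also in both cell cycle sums, at 198 and 204 CPM for G2 and mitosis, above libraries 3 and 4. In libraries 3 and 4 both cell cycle sums were above every PDGFRα- library, and the histone sum was not.

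**Figure D5:**
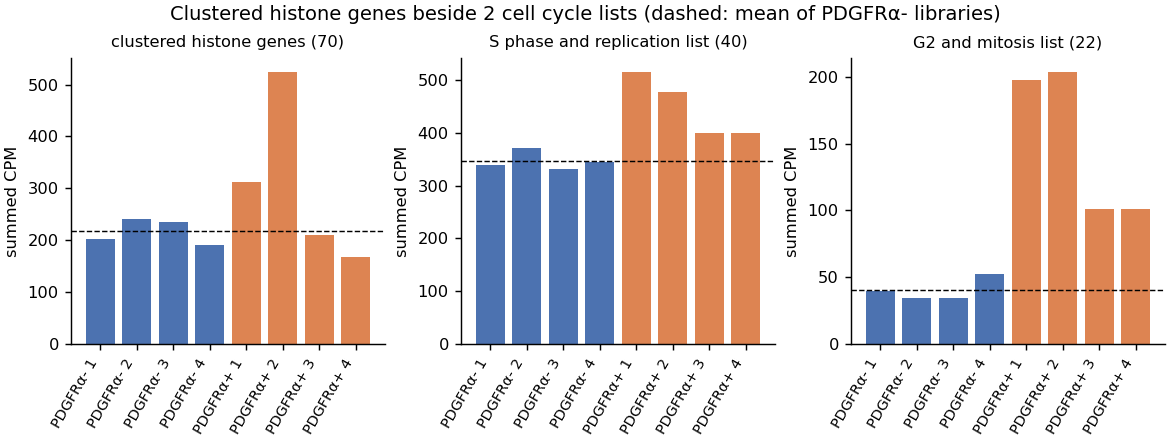
Summed CPM per library of the 70 clustered histone genes, 40 S phase and replication genes and 22 G2 and mitosis genes, with bars from 0 and a dashed line at the mean of the 4 PDGFRα- libraries. All 4 PDGFRα+ bars clear the line in the cell cycle panels, and of these only libraries 1 and 2 do so in the histone panel.

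Markers of other cells varied between libraries. The summed leukocyte list was 48.4 to 211 CPM in PDGFRα- and 39.4 to 92.4 CPM in PDGFRα+ libraries, the endothelial list 24.1 to 582 and 17.6 to 119 CPM, and the epithelial list 29.7 to 644 and 14.1 to 55.6 CPM. The erythroid list was at 550 CPM in PDGFRα- library 4 and at most 2.11 CPM elsewhere. In PDGFRα+ library 2, the highest in histone RNA, these sums were 40.6 CPM for leukocytes, 17.6 for endothelial and 22.6 for epithelial cells. There 5 of the 9 endothelial genes (Cdh5, Cldn5, Tie1, Lyve1 and Prox1) were at 0, while Vwf was at 11.1, Pecam1 at 4.63, Kdr at 1.72 and Emcn at 0.123 CPM. Of the leukocyte list Nkg7 (3.20 CPM, at 0 in the other 7 libraries) and Jchain (2.42 CPM) were highest there. The fibroblast list moved with the group, at 119000 to 169000 CPM in PDGFRα- and 88300 to 114000 CPM in PDGFRα+ libraries (ratio 0.699), and was lowest in PDGFRα+ library 2. All 7 of its genes had a negative log2 fold change, 4 with an unadjusted p under 0.05, and none passed the test. The smooth muscle and pericyte list was at 1410 to 1870 CPM in PDGFRα- and 1240 to 1620 CPM in PDGFRα+ libraries, which overlapped (ratio 0.83). All 7 of its genes too had a negative log2 fold change (median -0.42), 0 with an unadjusted p under 0.05. The part of any of these lists in the histone values was not tested.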

How the data were processed

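RNA of sorted cells went into the SMARTer Pico kit, which keeps strand and takes total RNA, per the labels' protocols. Reads were handled with STAR 2.7.3a, featureCounts 2.0.1, cutadapt 3.4 and DESeq2, against GRCm38, according to the submitters' processing notes. Not given in the sources used here were the annotation release and the settings for strand and multiple matches. As deposited by the authors, the table holds whole-number raw counts per gene and library, which were tested here. The same deposited table holds the authors' normalised counts, rounded and read as a score, not used for tests, and the authors' fold change as a ratio, log2 fold change, p-value and adjusted p-value.

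The test was edgeR 4.0.16 in R 4.3.3 (TMM, filterByExpr, robust quasi-likelihood, group as the only term, Benjamini-Hochberg over 15643 genes, threshold 0.05), with DESeq2 1.42.0 and limma 3.58.1 as alternatives. Its code was tested on simulated data. CPM divide counts by the TMM-scaled size in 1e+06, and SE values are those of the log2 fold change. Positions, exon lengths and transcripts came from GENCODE M21 (GRCm38) and promoters from RefSeq. None of 28 library pairs was identical. Reads of amplified small inputs are not independent molecules. The members and lists were chosen with earlier results of these data known. Genes were named by a rule: the 3 of each class highest per kb, genes called, and genes listed for a poly(A) or testis form. For other lists the rule took those called or otherwise the 2 most abundant. Depth ran from 12.9 to 35.1 (1e+06 counts), and fewer counts widen the intervals of low genes.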

Additional observations from a re-analysis of the deposited data

Results flagged for a closer look

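Of 96 checks of 4 libraries each, 5 were flagged for 1 library apart from the other 3 (by Dixon's test). Chance alone flags about 1 in 20 where values are not tied at 0. Hist2h2ab was at 15.9 CPM in PDGFRα+ library 2, against 0.226 to 1.58 CPM in the other PDGFRα+ libraries. Hist1h1t was at 1.97 CPM in the same library, against 0 to 0.172 CPM. Cenpf, a mitotic gene coding for a kinetochore protein, was at 24.1 CPM there, against 10.9 to 12.0 CPM. Hist1h3b was at 3.12 CPM and Hist1h2aa at 0.151 CPM (3 counts) in PDGFRα- library 4, and both were at 0 in the other PDGFRα- libraries. With the others at 0 any count is flagged, so the flags of these genes were fixed in advance and carry no weight.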

How the results depend on the processing

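The number of clustered histone genes called higher was 0 in the test as reported. It was 1 with no filter (Hist1h1d) and 2 under DESeq2 with a replicate block, an alternative chosen after seeing the data (Hist1h1b and Hist1h2af, the latter at an adjusted p of 0.05 after rounding). It was 0 under the edgeR replicate block, DESeq2 size factors, library totals, at least 10 counts in 4 libraries, DESeq2, limma-voom, identical copies summed and each library left out, and none was called lower anywhere. With the edgeR replicate block the median log2 fold change of the members was 1.18, against -0.01 over all genes tested. In that fit 5 of 37 members had an unadjusted p under 0.05. The share of all genes under that p is not given here, so no result about the members is drawn from the 5. Same-numbered libraries of the 2 groups deviated together with correlations of 0.23, 0.18, 0.02 and 0.25, and 7 of 8 were closest to their own number, a hint from the data at shared differences. Since 1 correlation was under the minimum of 0.1 and the labels do not say what a number stands for, pairing was not taken as established, although the authors' deposited fold changes match a model with the number as a term. The S phase list gained 3 calls and the lists of histone processing, chaperones, variants, RNAs without a tail and nuclear RNAs together 1 lower call under DESeq2 with a replicate block. Among the cell type markers the edgeR replicate block called 4 fibroblast genes and 1 leukocyte gene lower, where the test as reported called none. The G2 and mitosis list, with 1 call, had 3 with the replicate block, 2 with library totals, 4 with no filter, 4 with DESeq2, 6 with DESeq2 with a replicate block, and 1 to 2 with a library left out. The median log2 fold change of the members ran from 0.28 to 1.22 over all settings, and the log2 ratio of their summed level from 0.08 to 0.68. The cause of these changes was not tested. Genes called over the whole table ranged widely, from 30 higher and 8 lower as reported to 209 and 146 with the replicate block and 379 and 410 under DESeq2 with it, 167 and 110 with no filter, 128 and 77 under DESeq2 and 44 and 6 with library totals. Leaving out a library gave 7 to 39 higher and 0 to 11 lower.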
